A study of Mus musculus with 9 samples.

Results

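The let-7 family and miR-98 are 9 mature miRNAs, let-7a, let-7b, let-7c, let-7d, let-7e, let-7f, let-7g, let-7i and miR-98, all from the 5′ arm of their precursors. They were followed across 9 small RNA-seq libraries of mouse RNA that differed in how the sequencing adapters were joined to the RNA. A member was taken as all reads that began at its reference 5′ start in any of its precursor copies, and the 9 members were 9 of the 265 reference mature miRNAs whose starts could be located in these libraries. Levels are given as reads per 1000000 mapped reads (RPMM), the scale of the study. A level is thus a share of all mapped reads, and depends on how many reads other miRNAs took in the same library.

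RNA came from MIN6, a mouse insulinoma line used as a model of pancreatic beta cells and grown in 25 mM glucose and 10% serum, and from mouse liver. MIN6 RNA was prepared with the TruSeq kit (3 libraries), with the older v1.5 kit (3 libraries), both from Illumina and both with adapters of fixed sequence, and with the NEXTflex kit (1 library), whose adapters end in random bases. Liver RNA of 1 female C57BL/6J mouse, 9 weeks old when purchased, acclimated for 10 days, given saline into the tail vein and killed 7 days later after an overnight fast, was prepared once with TruSeq and once with NEXTflex. The TruSeq and v1.5 libraries of MIN6 were sequenced on a GAIIx instrument, and the other 3 libraries on a HiSeq. The NEXTflex library of MIN6 therefore differed from the other MIN6 libraries in kit, RNA preparation, instrument, facility and date, and these cannot be told apart, whereas both liver libraries came from the same RNA and a HiSeq. MIN6 is 1 tumour-derived line, the liver was that of 1 animal, and the study calls the MIN6 replicates biological replicates. The labels do not say whether they were separate cultures, and p-values measure only the spread between these libraries. Further TruSeq libraries of MIN6 run on a HiSeq were not analysed here.

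The let-7 miRNAs were found in the nematode as regulators of developmental timing and are conserved across bilaterian animals. Mature let-7 accumulates as cells differentiate, the RNA-binding protein LIN28 blocks its maturation by recruiting an enzyme that adds U to the 3′ end of the precursor, and its best known targets include Ras and Hmga2 mRNAs. Members share a seed, the stretch near the 5′ end that pairs with target mRNA, and for this reason are usually thought to regulate overlapping targets, while small RNA-seq tells them apart by the few bases outside the seed. Both Illumina kits and NEXTflex join one adapter to the 3′ end and one to the 5′ end of each RNA, and the efficiency of these joins is known to depend on the sequence of the RNA ends.

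The mature sequences (RefSeq, GRCm38.p6) are shown because the members are told apart by the bases in which they differ, which lie outside the seed. Capitals mark the seed, bases 2 to 8 counted from the 5′ end.
let-7a-5p: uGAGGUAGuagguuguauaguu
let-7b-5p: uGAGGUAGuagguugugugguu
let-7c-5p: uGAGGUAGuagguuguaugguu
let-7d-5p: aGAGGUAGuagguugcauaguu
let-7e-5p: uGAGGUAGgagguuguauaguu
let-7f-5p: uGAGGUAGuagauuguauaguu
let-7g-5p: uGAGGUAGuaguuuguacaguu
let-7i-5p: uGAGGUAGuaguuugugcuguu
miR-98-5p: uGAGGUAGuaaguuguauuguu

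All 9 sequences were 22 nt long and had the same seed. Relative to let-7a, with the base of let-7a first and positions counted from 1 at the 5′ end, let-7c carried A19G, let-7e carried U9G and let-7f carried G12A. let-7b carried A17G and A19G, let-7d carried U1A and U16C, let-7g carried G12U and U18C, and miR-98 carried G11A and A19U. The most diverged was let-7i, with G12U, A17G, U18C and A19U. Any pair of members differed by 1 to 6 bases, and 4 pairs by 1 base. The last 4 bases were AGUU in let-7a, let-7d, let-7e, let-7f and let-7g, GGUU in let-7b and let-7c, and UGUU in let-7i and miR-98.

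The 9 mature sequences had 12 precursor copies in the mouse genome (GRCm38.p6). A cluster on the minus strand of chromosome 13 held let-7a-1 (chr13:48538179-48538272), let-7f-1 (chr13:48537829-48537917) and let-7d (chr13:48536012-48536114), all exonic in the long noncoding RNA 6720427I07Rik. let-7f-2 (chrX:151912346-151912428) and miR-98 (chrX:151913214-151913321) lay together in an intron of Huwe1, a ubiquitin ligase gene, and let-7c-2 (chr15:85706603-85706697) and let-7b (chr15:85707319-85707403) in an exon of the noncoding RNA Lncppara. The other copies stood alone among the members. let-7a-2 (chr9:41536716-41536811) and let-7c-1 (chr16:77599657-77599750) were intronic in the noncoding genes 3110039I08Rik and Mir99ahg, let-7e (chr17:17830352-17830444) was intronic in Spaca6 and let-7g (chr9:106178840-106178927) in Wdr82. let-7i (chr10:122985640-122985724, minus strand) was exonic in D630033A02Rik, annotated as a transcribed processed pseudogene. Reads of let-7a, let-7c and let-7f could come from either of their 2 copies, were divided between them by the authors and were added together here.

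Library totals were 6923460 to 25638871 reads, and the 9 members were counted from 3942 reads (let-7e in the TruSeq liver library) to 1537897 reads (let-7c with NEXTflex in MIN6) each. Counting error was thus small, though not against every difference below. Markers fitted the labelled material. miR-375, a beta-cell miRNA, was at 64950.1 to 186331 RPMM in MIN6 and at 40.0 and 26.7 RPMM in liver. By contrast miR-122, the hepatocyte miRNA, was at 17244 and 532452 RPMM in liver and at most 128 RPMM in MIN6. miR-7a, also a beta-cell miRNA, was at 782 to 248933 RPMM in MIN6 and at 6.61 and 678 RPMM in liver, and miR-192, also of hepatocytes, was at 82266 and 6026 RPMM in liver and at most 1428 RPMM in MIN6. Blood and endothelial miRNAs were present in the liver RNA, with miR-486-5p at 6186 and 1651 RPMM, miR-451a at 225 and 51.6 RPMM and miR-126-3p at 463 and 1884 RPMM for TruSeq and NEXTflex, and their part in the liver levels of the members was not tested. In bulk RNA, fewer cells of a type and less of an RNA per cell cannot be told apart.

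MIN6 RNA gave a much larger let-7 family with v1.5 than with TruSeq. The 9 members together took 6.35%, 6.40% and 6.42% of mapped reads in the 3 TruSeq libraries, and 26.1%, 25.6% and 26.5% in the 3 v1.5 libraries. The summed level was 63929.8 ± 374 RPMM with TruSeq and 260675 ± 4539 RPMM with v1.5 (SD, n = 3 each), 4.08-fold higher with v1.5. The 2 groups were far apart, but with 3 libraries against 3 the two-sided exact permutation test cannot give less than p = 0.1, which was its value here. In the NEXTflex library of MIN6 the family reached 24.3% of mapped reads and 242757 RPMM. In liver it took 4.06% with TruSeq and 14.1% with NEXTflex. Reads on listed miRNAs were 48.6% and 83.3% of mapped reads in these 2 libraries, and of the listed reads the family took 8.35% and 16.99%, a ratio of 2.03 in place of 3.48.

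**Figure D1:**
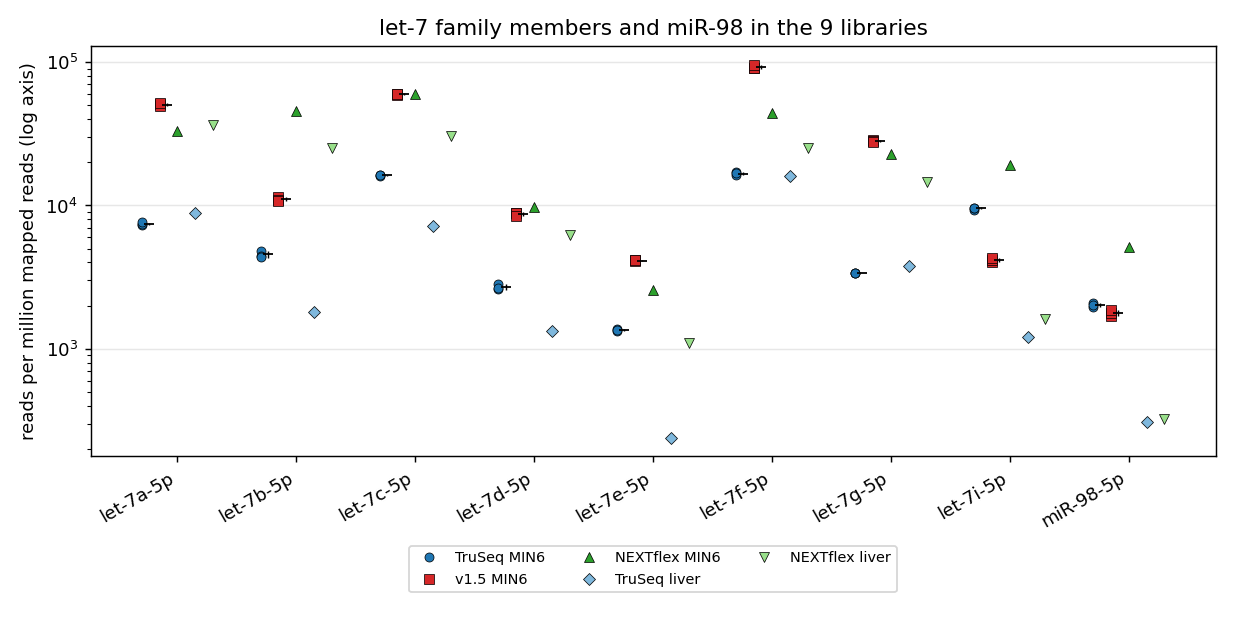
Levels of the 9 members in the 9 libraries, in RPMM on a log axis. Each point is 1 library, and ticks with bars give the mean and SD where a group has 3 libraries. In 7 members the 3 v1.5 points of MIN6 lie above the 3 TruSeq points, whereas in let-7i and miR-98 they lie below.

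The difference was not shared by all members. let-7a, b, c, d, e, f and g were 2.43- to 8.31-fold higher with v1.5, and let-7i and miR-98 were lower. edgeR's quasi-likelihood test over 317 miRNA starts, with Benjamini-Hochberg adjustment over all of them, called all 9 members, 7 higher and 2 lower with v1.5. Most starts were called in this comparison, 54.9% higher and 37.9% lower, and 92.4% had no overlap between the 2 groups, so that a call by itself set no member apart from other miRNAs. The median log2 fold change over all 317 was 0.55 on this scale. It was 0.08 with TMM scaling and 0.06 with DESeq2 size factors, and each member kept its direction and its call with both. With only the reads that were assigned whole to 1 place, which leaves out those shared by precursor copies, the calls of let-7a, let-7c and let-7f were lost (edgeR adjusted p = 0.324, 0.308 and 0.245), while their log2 fold changes were still above 0, at 1.68, 1.70 and 1.73.

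let-7g had the largest difference. Its level was 3387, 3369 and 3403 RPMM in the TruSeq libraries and 28627, 28013 and 27779 RPMM in the v1.5 libraries. The replicates lay within 2 tight bands, and the fitted log2 fold change was 3.05 ± 0.04 (SE; edgeR adjusted p = 2.20e-13). let-7a, the reference member of the family, stood at 7325, 7410.3 and 7608 RPMM with TruSeq and at 50688, 49288 and 51531 RPMM with v1.5. This was a log2 fold change of 2.76 ± 0.05 (edgeR adjusted p = 5.75e-13), again with no overlap.

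let-7f, 1 base away from let-7a, was at 16201, 17029 and 16860.1 RPMM with TruSeq and at 90717, 90371 and 96215 RPMM with v1.5, a log2 fold change of 2.47 ± 0.05 (edgeR adjusted p = 2.03e-12). With v1.5 it was the highest of all 265 reference miRNAs in each of the 3 libraries, whereas with TruSeq it ranked between 8 and 9. let-7c stood beside let-7f with TruSeq, at 16243, 16118 and 16389 RPMM, and rose to 60407, 58678 and 60146 RPMM with v1.5. The TruSeq ranges of let-7c and let-7f overlapped, but their v1.5 ranges did not, since the log2 fold change of let-7c was 1.88 ± 0.04 (edgeR adjusted p = 5.13e-12).

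let-7d, let-7e and let-7b rose by less. let-7d went from 2696 ± 136 to 8711 ± 228 RPMM (SD, n = 3 each) and let-7e from 1355 ± 25.3 to 4127 ± 52.9 RPMM. Their log2 fold changes were 1.69 ± 0.05 and 1.61 ± 0.04 (SE; edgeR adjusted p = 3.02e-11 and 1.15e-11). let-7b, which differs from let-7c by 1 base, showed the smallest rise, from 4826, 4439 and 4389 RPMM to 11423, 10972 and 10792 RPMM, a log2 fold change of 1.28 ± 0.05 (edgeR adjusted p = 3.63e-10). It was also the member with the widest replicate spread with TruSeq, a coefficient of variation of 5.25%.

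let-7i moved the other way. It was at 9359, 9657 and 9583 RPMM with TruSeq, behind let-7f and let-7c in the family, and at 4050.3, 4169.5 and 4302 RPMM with v1.5. The 2 groups were far apart, and the log2 fold change was -1.19 ± 0.04 (edgeR adjusted p = 1.76e-10). miR-98 was at 1947, 2085 and 2008 RPMM with TruSeq and at 1701, 1787 and 1857 RPMM with v1.5. The groups did not overlap, but the gap between the nearest libraries was narrower than the range within either group, and the log2 fold change was -0.18 ± 0.05 (edgeR adjusted p = 0.00588). Grouped by their last 4 bases, the ratio of v1.5 to TruSeq ran from 3.05 to 8.31 for the 5 members ending in AGUU. It ran from 2.43 to 3.68 for the pair ending in GGUU and from 0.438 to 0.885 for the pair ending in UGUU. The AGUU and GGUU ranges overlapped, and a link between the ending and the ratio was not tested.

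**Figure D2:**
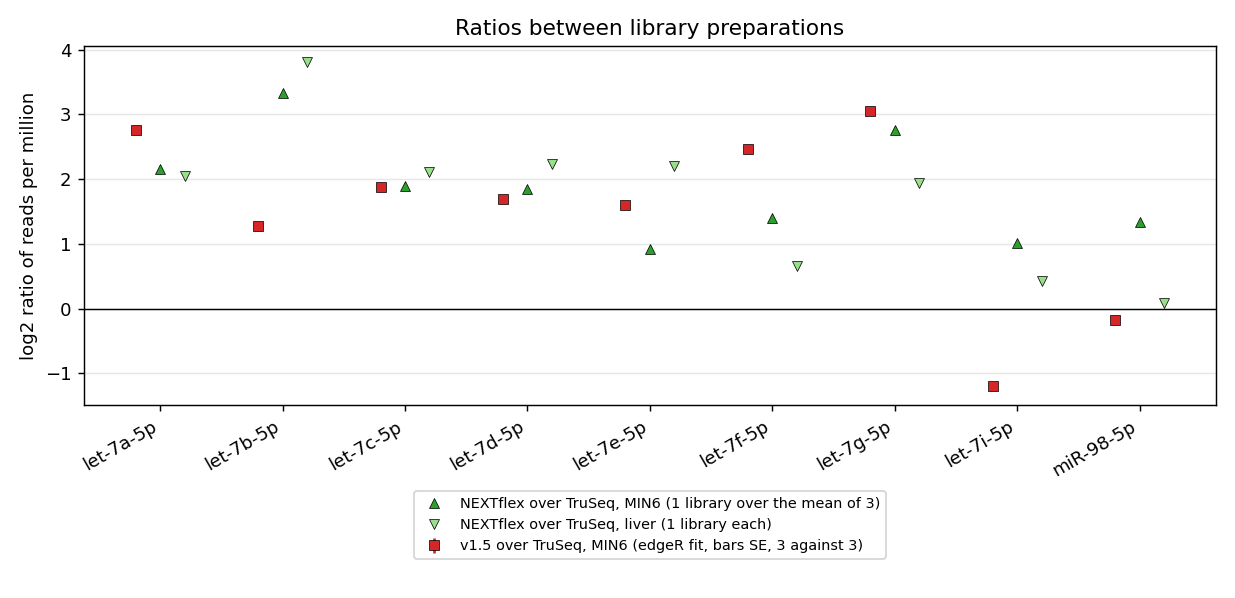
log2 ratios between preparations for each member: v1.5 over TruSeq in MIN6 with the SE of the edgeR fit (3 libraries each), NEXTflex over TruSeq in MIN6 and NEXTflex over TruSeq in liver (1 NEXTflex library each, no error). Only let-7i and miR-98 lie below 0 for v1.5 over TruSeq, and let-7b is the highest member in both NEXTflex ratios.

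The make-up of the family, which does not depend on library size, shifted with the kit. let-7f, let-7a and let-7g took larger shares of the family's reads with v1.5, 35.5%, 19.4% and 10.8%, than with TruSeq, 26.1%, 11.6% and 5.30%. The other 6 took smaller shares. With whole-number alignments alone, the v1.5 minus TruSeq difference in share turned positive for let-7c, let-7d and let-7e, at 1.14, 1.40 and 0.514 percentage points. It turned negative for let-7f, at -0.556, but this setting keeps or drops shared reads by the value of their count. let-7i differed most, at 14.9% ± 0.174 with TruSeq and 1.60% ± 0.041 with v1.5 (SD, n = 3 each), and miR-98 was at 3.15% and 0.683%. let-7b went from 7.12% to 4.25% and let-7c from 25.4% to 22.9%. The replicates of the 2 kits did not overlap for any member, and the two-sided exact permutation p was 0.1 for each of the 9 (Benjamini-Hochberg adjusted over 9, 0.1), the smallest that 3 against 3 libraries allow.

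Several members also changed places. In order of level, TruSeq gave let-7f, c, i, a, b, g, d, miR-98 and let-7e, and v1.5 gave let-7f, c, a, g, b, d, i, e and miR-98. All neighbours in these orders were separated by their replicate ranges except let-7f and let-7c with TruSeq and let-7i and let-7e with v1.5. Of the 36 pairs of members, 6 stood in the opposite order with the 2 kits. Among the 265 reference miRNAs let-7i ranked between 13 and 15 with TruSeq and between 37 and 38 with v1.5, while let-7g ranked between 32 and 33 with TruSeq and between 6 and 7 with v1.5.

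**Figure D3:**
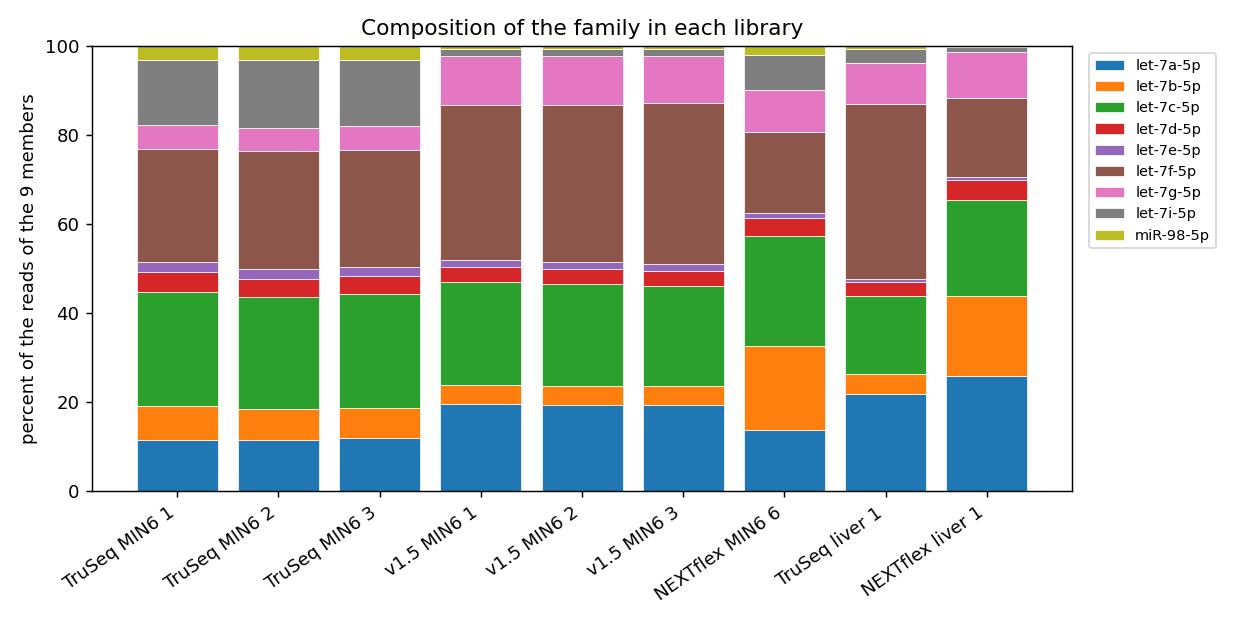
Share of each member in the summed reads of the 9 members, in percent, with 1 stacked bar for each of the 9 libraries. The let-7i segment is 14.9% of the TruSeq bars of MIN6 on average, 1.60% of the v1.5 bars and 7.89% of the NEXTflex bar, and the let-7b segment is 18.9% and 17.8% of the NEXTflex bars of MIN6 and liver against 7.12% of the TruSeq and 4.25% of the v1.5 bars of MIN6 on average.

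With NEXTflex, all 9 members were above each of the 3 TruSeq libraries of MIN6, although with whole-number alignments alone the ratio of let-7a was 0.338. The ratio to the TruSeq mean was more than 2 for 8 of 9 members (7 when scaled to the reads on listed miRNAs), against 35.7% of the 207 reference starts compared, and ran from 1.89 for let-7e to 10.1 for let-7b. The group has 1 library, so that there is no replicate check and no test, and intervals cover counting error only. let-7b was at 45901 RPMM in that library (95% exact Poisson interval 45818 to 45984), above let-7f at 44142 RPMM and let-7a at 33057 RPMM. let-7g followed at 22923 RPMM.

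Against v1.5, NEXTflex was higher for some members and lower for others. let-7i, at 19165 RPMM, was 4.59 times the v1.5 mean, let-7b was 4.15 times and miR-98, at 5105 RPMM, was 2.87 times, so that 3 of 9 members were more than 2-fold higher, against 22.9% of the 218 starts compared. let-7f, at 0.478 of the v1.5 mean, was the single member more than 2-fold lower, against 49.5% of starts. With whole-number alignments alone the ratio of let-7f was 1.08 and that of let-7c 0.449. let-7a, let-7e and let-7g were below the v1.5 range by less than that, at ratios of 0.655, 0.620 and 0.815, and let-7d was above it at 1.12. let-7c, at 60154 RPMM, was within the range of the 3 v1.5 libraries. let-7c was the highest member with NEXTflex and took 24.8% of the family, followed by let-7b at 18.9% and let-7f at 18.2%.

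Liver RNA, prepared by both kits from one RNA and run on one kind of instrument, gave the largest ratio for the same member. let-7b was at 1800.3 RPMM with TruSeq and at 25166 RPMM with NEXTflex, a ratio of 14.0, the highest of the 9. let-7a, c, d, e and g were 3.84- to 4.71-fold higher with NEXTflex, so that 6 of 9 members were more than 2-fold higher, against 20.7% of the 116 starts compared, and none was more than 2-fold lower, against 41.4%. let-7f was at 15955 and 25141 RPMM, a ratio of 1.58, or 0.388 with whole-number alignments alone. let-7i, at 1212 and 1625 RPMM, had a ratio of 1.34, and miR-98, at 306 and 324 RPMM, one of 1.06. The 95% exact Poisson intervals of miR-98, 298 to 315 and 314 to 333 RPMM, overlapped. With no replicate in liver, none of these ratios was tested. Scaled to the reads on listed miRNAs in place of all mapped reads, the ratios of let-7f, let-7i and miR-98 were below 1, at 0.920, 0.783 and 0.617, that of let-7b was 8.16, and those of let-7a, c, d, e and g were 2.24 to 2.75.

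The leading member in liver depended on the kit. With TruSeq let-7f led at 39.3% of the family, then let-7a at 21.8% and let-7c at 17.6%, while with NEXTflex let-7a led at 25.9%, then let-7c at 21.7%, and let-7b and let-7f each took 17.8%. Of the 36 pairs, 5 were in the opposite order. let-7b was 4.43% of the family in the TruSeq library of the same RNA.

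Between tissues, let-7i and miR-98 were the members farthest below MIN6 in liver with both kits. With TruSeq, let-7i in liver was at 0.127 of its MIN6 mean and miR-98 at 0.152. With NEXTflex the ratios were 0.0848 and 0.0634. let-7e was next with both, at 0.177 and 0.428. With TruSeq 6 of 9 members were more than 2-fold lower in liver, against 63.2% of the 204 starts compared, and with NEXTflex 3 of 9, against 65.9% of 185. The other members were nearer to their MIN6 level, with let-7a at ratios of 1.19 and 1.11, let-7b at 0.396 and 0.548, let-7c at 0.439 and 0.510, let-7d at 0.492 and 0.640 and let-7f at 0.956 and 0.570. Scaled to the reads on listed miRNAs, 3 members in place of 6 were more than 2-fold lower in liver with TruSeq, let-7b, let-7c and let-7d being at 0.579, 0.643 and 0.721, and let-7f was above its MIN6 level, at a ratio of 1.40. With whole-number alignments alone let-7a was at 0.0929 and let-7f at 1.08 with TruSeq, and let-7c at 2.59 with NEXTflex. let-7g was above MIN6 with TruSeq at 1.12 and below it with NEXTflex at 0.633. The TruSeq libraries of the 2 tissues were also run on different instruments, and these cannot be told apart from the tissue.

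Read lengths showed which molecules made up the 2 members that fell. In the TruSeq libraries of MIN6, 77.02%, 77.34% and 77.97% of let-7i reads were 22 nt long, the annotated length, and in the v1.5 libraries 21.0%, 21.3% and 21.2% were. With v1.5 the 21-nt form was the most frequent, 42.7% ± 0.106 of reads against 4.71% ± 0.091 with TruSeq, and the 23-nt form was 5.23% ± 0.199 with TruSeq and 27.7% ± 0.109 with v1.5 (SD, n = 3 each). miR-98 showed the same shift, with 22-nt reads at 80.5% ± 0.523 and 33.3% ± 0.317, 21-nt reads at 8.57% and 41.7% and 23-nt reads at 3.72% and 22.1%. In the other 7 members 22-nt reads were the most frequent with both kits, 65.0% to 87.1% with TruSeq and 57.2% to 83.9% with v1.5. The NEXTflex library of MIN6 had 73.5% of let-7i reads and 78.0% of miR-98 reads at 22 nt. In liver, let-7i was split between 22-nt reads, 41.9% with TruSeq and 37.4% with NEXTflex, and 23-nt reads, 41.3% and 43.3%, whereas miR-98 kept 66.2% and 67.8% at 22 nt.

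**Figure D4:**
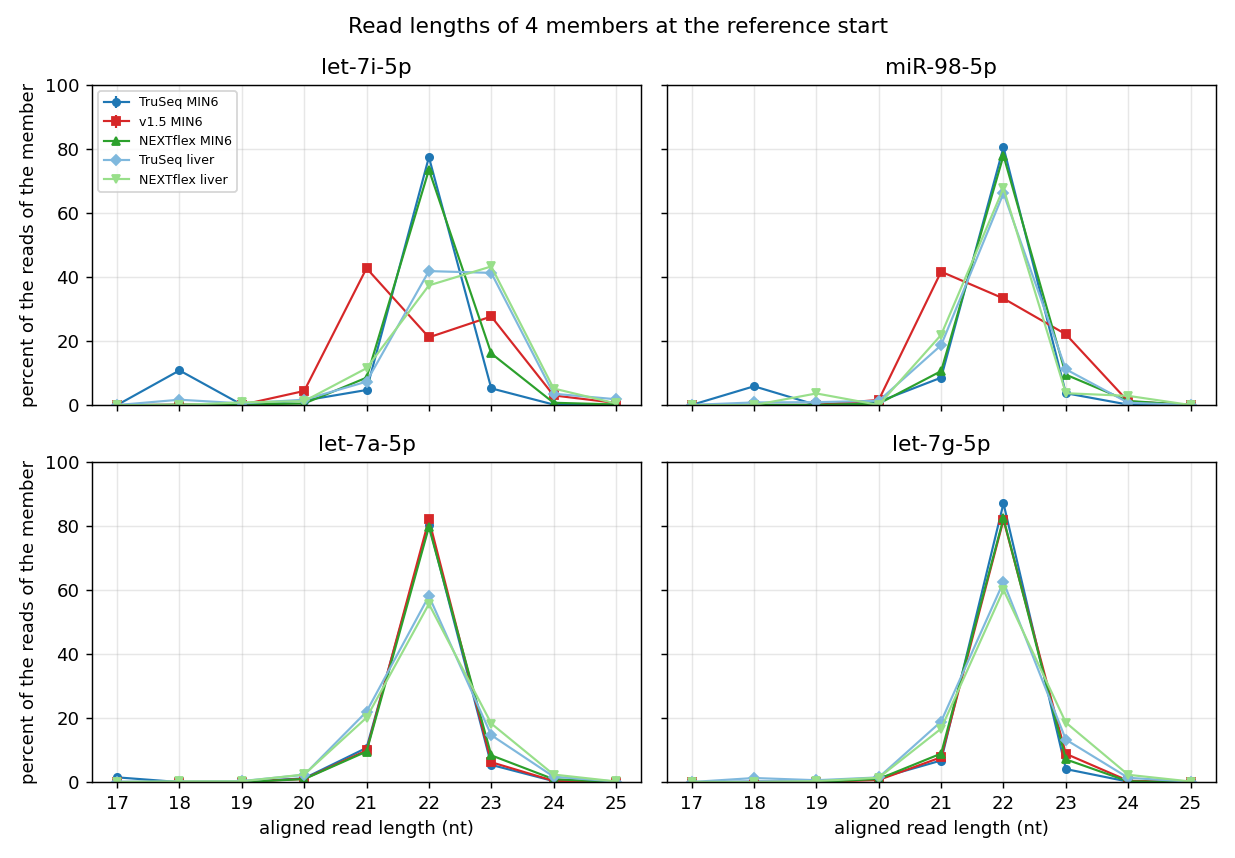
Percent of reads by aligned length, 17 to 25 nt, for let-7i, miR-98, let-7a and let-7g. Lines for TruSeq and v1.5 in MIN6 are means of 3 libraries with SD bars. The other lines are single libraries, NEXTflex in MIN6 and TruSeq and NEXTflex in liver. In MIN6 with v1.5, let-7i has peaks at 21 and 23 nt and miR-98 has one at 21 nt, while let-7a and let-7g have a 22-nt peak with all 3 kits.

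In level, 22-nt let-7i went from 7383 ± 151 RPMM with TruSeq to 883 ± 29.9 RPMM with v1.5 (SD, n = 3 each), while the 21-nt form went from 449 to 1784 RPMM and the 23-nt form from 498 to 1155 RPMM. For miR-98 the 22-nt form went from 1622 to 593 RPMM, the 21-nt form from 172 to 743 RPMM and the 23-nt form from 74.8 to 394 RPMM. A fit of every start divided by read length (683 forms, added after the lengths were seen) called all 54 member forms with edgeR, 47 higher and 7 lower with v1.5, against 58.1% and 37.9% of all forms, 96.0% being called in either direction. All 9 members were higher at 21 nt (log2 fold changes of 1.33 to 3.25) and at 23 nt (1.21 to 4.17). At 22 nt the same 7 members were higher, and let-7i and miR-98 were lower, by log2 fold changes of -3.06 and -1.45.

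The 5 remaining lower forms were short fragments. 18-nt reads were 10.8% ± 0.35 of let-7i reads and 5.88% ± 0.277 of miR-98 reads in the TruSeq libraries (SD, n = 3), and 0.0796% and 0.0170% with v1.5. In level this was 1032 against 3.33 RPMM for let-7i and 118 against 0.307 RPMM for miR-98. With NEXTflex in MIN6 the shares were 0.135% and 0.0982%, and in the TruSeq liver library 1.68% and 0.833%. The 17-nt forms of let-7a, let-7b and let-7c were also lower with v1.5, with log2 fold changes of -4.64 to -4.42, although the 17-nt reads of let-7a and let-7c have the same sequence and were divided between these loci. let-7f went against this, its 18-nt form being higher with v1.5 by a log2 fold change of 3.88.

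Mean read length was greater with v1.5 for all 9 members, by 0.0188 to 0.292 nt and with no overlap between the groups, against 48.6% of 214 reference starts that were longer and 40.7% that were shorter in this way. let-7i went from 21.5 to 21.8 nt. This direction rested on reads with mismatches for let-7i and miR-98, whose mean length was lower with v1.5, with differences of -0.199 and -0.218 nt, when only reads that matched the genome exactly were counted.

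With v1.5, let-7i and miR-98 were the members whose 3′ ends most often did not match the genome. A mismatch in the last 2 bases was seen in 5.63% ± 0.208 of let-7i reads with TruSeq and 31.2% ± 0.149 with v1.5, and in 3.94% ± 0.108 and 23.1% ± 0.444 of miR-98 reads (SD, n = 3 each). In the other members the share was 2.14% to 8.35% with TruSeq and 2.66% to 8.24% with v1.5. It was higher with v1.5 without overlap in 6 members and lower in 1, let-7b, against 39.7% and 42.1% of 214 starts, and overlapped in let-7c and let-7e. The mismatched base was U or A in about equal amounts in let-7i with v1.5, 15.3% of reads with U and 15.4% with A, against 2.84% and 2.53% with TruSeq. The NEXTflex library had U in 13.8% and A in 2.75% of let-7i reads. A U added after base 22 shows as a mismatch only where the next base of the precursor is not U, which is the case for let-7e, let-7i, miR-98 and the let-7f-1 copy.

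**Figure D5:**
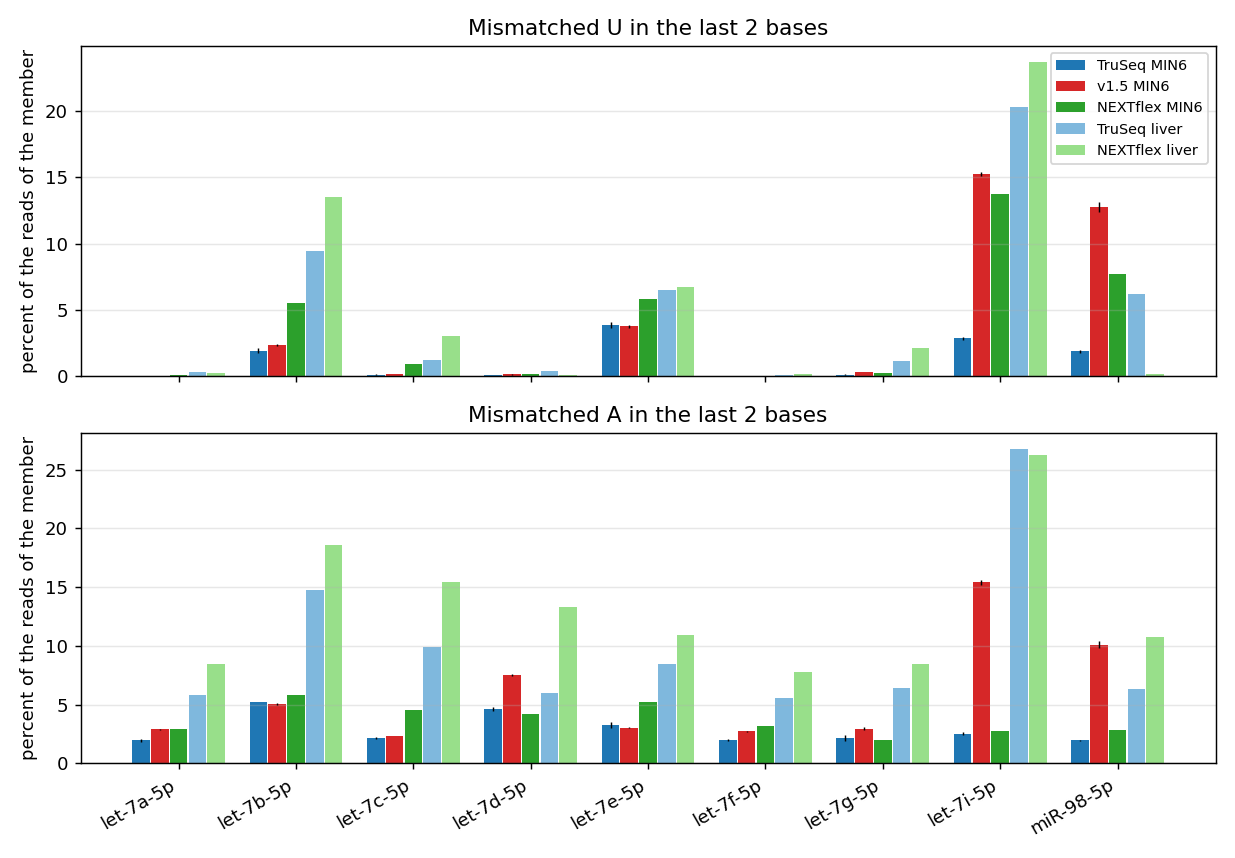
Percent of each member's reads with a mismatched U (top) or A (bottom) in the last 2 bases, by group, with bars starting at 0 and SD bars where a group has 3 libraries. The U and A bars of let-7i are 15.3% and 15.4% with v1.5 and 2.84% and 2.53% with TruSeq in MIN6, and in liver its A bars, 26.8% with TruSeq and 26.2% with NEXTflex, are the highest of the panel.

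As levels, both kinds of read had their own ratio. let-7i reads with a mismatched 3′ end were at 537 ± 23.7 RPMM with TruSeq and 1302 ± 33.0 RPMM with v1.5, a ratio of 2.42, while those without one were at 8996 ± 143 and 2872 ± 92.7 RPMM (SD, n = 3 each), a ratio of 0.319. For miR-98 the ratios were 5.17 and 0.709. In liver, 47.5% of let-7i reads with TruSeq and 50.03% with NEXTflex had a mismatched end, and all 9 members had a higher share in liver than in MIN6 with both kits, as had 85.2% of 189 starts with TruSeq and 58.4% of 154 with NEXTflex. let-7b was second in liver, at 26.6% and 33.4%, against 8.35% and 11.7% in MIN6. let-7i without a mismatched end was at 0.0707 (TruSeq) and 0.0509 (NEXTflex) of its MIN6 level in liver, and let-7i with one at 1.07 and 0.254. Reads with the mismatch elsewhere in the sequence varied from library to library within a kit, from 0.86% to 4.08% of let-7i reads with TruSeq and from 2.21% to 6.74% with v1.5, and overlapped between the kits. Trimming acts on the same end and was done in another way for NEXTflex, and its part in these shares was not tested.

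The 5′ ends were more uniform. Reads that began within 5 nt of the reference start but not at it were 0.166% to 1.71% of a member's reads with TruSeq and 0.199% to 1.99% with v1.5. The share was higher with v1.5 in 4 members and lower in 4 with no overlap between groups, against 38.3% and 30.4% of 214 starts, and overlapped for let-7g. Within 5 nt the largest differences were in let-7i, 0.186% ± 0.033 with TruSeq and 1.34% ± 0.132 with v1.5, and miR-98, 0.166% and 1.42% ± 0.367 (SD, n = 3). Most of these reads began 3 nt downstream, inside the seed, 0.920% ± 0.210 of let-7i and 1.21% ± 0.328 of miR-98 with v1.5 against 0.0348% and 0.0357% with TruSeq. Within 2 nt of the start, which leaves these reads out, miR-98 was at 0.0993% with TruSeq and 0.148% with v1.5 and the groups overlapped. In this narrower window let-7i was at 0.0791% and 0.361%, and the largest differences were those of let-7d, 0.317 percentage points, and let-7c, -0.290. Only let-7c was then lower with v1.5 without overlap, and let-7e was higher, at 0.177% and 0.251%. let-7d, the member whose first base is A, had most shifted reads with TruSeq, mainly from 1 nt upstream, at 1.40% with TruSeq, 1.66% with v1.5 and 1.24% with NEXTflex in MIN6 and at 2.17% and 2.23% in liver.

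Of the 12 opposite arms, let-7b-3p and let-7d-3p were among the starts fitted. Their sequences are given because they had the opposite direction to their 5′ arms, with bases 2 to 8 in capitals.
let-7b-3p: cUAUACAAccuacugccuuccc
let-7d-3p: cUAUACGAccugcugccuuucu

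let-7d-3p was at 387, 402 and 370.0 RPMM with TruSeq and at 223, 210.2 and 209.8 RPMM with v1.5, and let-7b-3p at 156, 152 and 164 RPMM and at 62.9, 60.1 and 64.4 RPMM. Both were lower with v1.5 without overlap, by log2 fold changes of -0.85 ± 0.06 and -1.34 ± 0.06 (SE; edgeR adjusted p = 4.82e-08 and 1.32e-09), while let-7d-5p and let-7b-5p were higher. let-7d-3p was at 499 RPMM with NEXTflex in MIN6 and at 484 and 839 RPMM in liver with TruSeq and NEXTflex and was thus above its MIN6 level in liver with both kits. let-7b-3p was at 30.8 RPMM with NEXTflex in MIN6 and 39.7 RPMM in liver with TruSeq. It had 0 reads in the NEXTflex liver library, where 9 of the 12 arms had none, against 5 in the NEXTflex library of MIN6 and 1 in each of the other libraries. By counting error a count of 0 there allows up to 0.209 RPMM, but the cause of so many zeros was not tested. let-7a-1-3p and let-7c-2-3p have the same sequence and were not among the starts fitted. Added together they were at 147, 138 and 133 RPMM with TruSeq and at 124, 129 and 120.2 RPMM with v1.5, lower without overlap (two-sided exact permutation p = 0.1, the smallest possible), and at 59.1 RPMM with NEXTflex in MIN6. As a share of the reads of both arms, let-7d-3p was 12.5% with TruSeq and 2.40% with v1.5 in MIN6, and 26.7% and 11.8% in liver with TruSeq and NEXTflex. let-7i was the one member whose 3′ arm took a larger share with v1.5, 1.59% against 0.617%.

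Of the miRNAs made from the same primary transcripts as members, 4 were at 100 RPMM or more in a MIN6 library and were tested, and 2 were called higher and 1 lower with v1.5, against 54.9% and 37.9% of all starts. miR-99a, which shares a host transcript with let-7c-1, went from 33.9 to 146 RPMM (log2 fold change 2.10), and miR-125b from 116 to 271 RPMM (1.23). miR-99b and miR-125a, from the same transcript as let-7e, went apart from it and from each other. miR-99b was at 4657 and 4684 RPMM, a log2 fold change of 0.01 (edgeR adjusted p = 0.900), and miR-125a at 8425 and 1023 RPMM, a log2 fold change of -3.04, while let-7e rose. miR-100 was at 0.078 RPMM with TruSeq and 0.364 RPMM with v1.5 in MIN6 and was not tested, and stood at 670.2 and 99.0 RPMM in liver with TruSeq and NEXTflex.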

How the data were processed

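Small RNA was sequenced from 7 libraries of MIN6 and 2 of liver. Per the study's methods and the submitters' processing notes, the authors removed the 3′ adapter from reads of the Illumina kits with cutadapt, cut the random adapter bases off both ends of NEXTflex reads, and aligned reads to mm9 with Bowtie (versions and options are not all given in the sources used here), then deposited for each library a list of alignments with an expected count each, a read that matched several places equally well being shared out equally. The unit is thus an estimated count without molecular identifiers, and intervals and floors (3 reads) cover counting error only. Depth was 6644520 to 25566100 mapped reads, and the counts summed to 0.264% to 8.41% more than this number.

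Members were located as 5′ ends whose RPMM equalled the study's tabulated values, which were used for nothing else. All 414 table entries and 12 of 12 member copies were placed, each member copy at a single position. Copies were summed, giving 375 merged starts. The aligned length and the edit string gave read lengths and mismatches. edgeR 4.0.16 (quasi-likelihood, R 4.3.3) was run on expected counts rounded to whole numbers, with mapped reads as library size, over the 317 starts with at least 100 RPMM in at least 1 MIN6 library, with Benjamini-Hochberg adjustment and a threshold of 0.05. Shares and mean lengths were compared by two-sided exact permutation tests over libraries. Folds of single libraries were counted past 2-fold, without a test. Starts within 5 nt and mismatches in the last 2 bases were counted. For a check of the fit, counts of 317 starts were simulated from the TruSeq means with preset folds and a single preset dispersion. There 196 of 200 changed and 4 of 117 unchanged starts were called, which does not check the choice of scaling.

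Replicates differed beyond sampling noise (chi-square per degree of freedom 32.0 to 113), so none was counted as a duplicate. TruSeq and v1.5 share replicate numbers, and the deviations of same-numbered libraries were weakly correlated (0.107, 0.211 and 0.212 over starts). Libraries with different numbers were not compared in this way, so the values do not show that the numbers pair them. The main fit and the permutation tests treated the libraries as unpaired, and a replicate block was run as an alternative. No column of another sample was used. Sequences and positions were taken from RefSeq and the annotation from GENCODE, both on GRCm38, and no mm9 coordinate was converted. All 9 members are named by rule, with their 3′ arms, the miRNAs of their primary transcripts and the 3 miRNAs most like the family in pattern. Marker lists were for beta cells, hepatocytes, blood and endothelium, of which miR-144-3p, miR-142-3p and miR-223-3p were not placed. Members and lists were chosen with earlier results of these data known. Alternatives were other scalings, DESeq2 1.42.0, other filters, exact matches, whole-number alignments, a replicate block and leaving out each library.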

Additional observations from a re-analysis of the deposited data

Results flagged for a closer look

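For some values the liver library stood on one side of MIN6 with TruSeq, outside the range of its 3 libraries, and on the other with NEXTflex. Each rests on single libraries and the difference was not tested, and groups of 3 libraries were not checked for a stray sample. The level of let-7g in liver was 1.12 times that in MIN6 with TruSeq and 0.633 times with NEXTflex. As a share of the family, the difference of liver minus MIN6 was 13.2 percentage points with TruSeq and -0.411 with NEXTflex for let-7f, and -0.949 and 0.398 for let-7d.

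The mean length of miR-98 in liver minus MIN6 was 0.156 nt with TruSeq and -0.234 nt with NEXTflex. The same difference was 0.0468 and -0.0101 nt for let-7a, -0.0105 and 0.0341 nt for let-7d, and -0.0605 and 0.0599 nt for let-7g. Reads with a shifted 5′ start were more frequent in liver with TruSeq and less frequent with NEXTflex for 5 members by this measure. In percentage points the liver minus MIN6 differences with TruSeq and NEXTflex were 0.997 and -0.347 for let-7a, 1.33 and -0.547 for let-7e, 0.671 and -0.588 for let-7f, 0.813 and -1.24 for let-7i, and 0.894 and -0.857 for miR-98. The 3′ arm of let-7e as a share of both arms differed between liver and MIN6 by 0.818 percentage points with TruSeq and -0.507 with NEXTflex, where the liver library had 0 reads of let-7e-3p, as it had of 9 of the 12 arms.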

How the results depend on the processing

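Leaving out each MIN6 library in turn left 7 members higher and 2 lower with v1.5, and the fold of the family total between 4.04 and 4.11. The replicate block (replicate numbers treated as pairs) changed no call among the members and left the adjusted p of miR-98 at 0.00392 (edgeR), with 296 of 317 starts called. Of 165 other values of the members' log2 fold changes, 162 kept direction and call, with DESeq2, the TMM scaling and the block included.

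The setting that mattered most was counting only alignments with a whole-number count. Reads shared by the copies of let-7a, let-7c and let-7f are kept where their parts add up to a whole number and dropped elsewhere. The values of this setting are thus not those of uniquely assigned reads. With it 4 members were called higher, since let-7a, let-7c and let-7f missed the threshold with log2 fold changes of 1.68, 1.70 and 1.73. Without overlap, 1 member had a larger family share with v1.5 and 2 a smaller one. The v1.5 minus TruSeq differences in share became 1.14, 1.40 and 0.514 percentage points for let-7c, let-7d and let-7e and -0.556 for let-7f. The NEXTflex ratios became 0.338 for let-7a to TruSeq, 0.449 for let-7c and 1.08 for let-7f to v1.5, and 0.388 for let-7f to TruSeq in liver. The ratio of liver to MIN6 became 0.0929 for let-7a and 1.08 for let-7f with TruSeq and 2.59 for let-7c with NEXTflex, so that 2 members were above 1 with NEXTflex.

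Scaling to the reads on listed miRNAs gave NEXTflex ratios of 0.922 for let-7c to v1.5 and, in liver, of 0.920 for let-7f, 0.783 for let-7i and 0.617 for miR-98, and a liver to MIN6 ratio of 1.40 for let-7f with TruSeq. With exact matches, let-7c to v1.5 was 0.962 and the mean length was lower with v1.5 in 2 members, let-7i and miR-98, with differences of -0.199 and -0.218 nt. Within 2 nt of the start, 1 member had a smaller shifted share with v1.5 without overlap, the groups of let-7a, let-7f, let-7g and miR-98 overlapped, and the differences of let-7a and let-7e were 0.00864 and 0.0735 points. With the last base alone, 2 members had fewer mismatches with v1.5 without overlap, and for the last 2 bases 1 to 2 did when a library was left out (2 without TruSeq replicate 3). Without 22-nt reads, an alternative chosen after seeing the data, let-7i and miR-98 had ratios of 1.53 and 3.03, which follows in large part from leaving out a form already seen to be lower. The causes of changes other than those of construction were not tested.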

Other observations

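The 3 reference miRNAs outside the family whose level followed the summed family most closely over the 9 libraries, on the log2(RPMM + 1) scale, were miR-652-3p (Pearson r = 0.98), miR-152-3p (0.98) and miR-24-3p (0.94). The 9 points share 2 sources of RNA and 3 kits, so the correlation is given as a description. Measured the same way against the sum of the other 8 members, let-7i had r = 0.05 and miR-98 r = 0.38, while the other 7 members ran from 0.75 for let-7b to 0.98 for let-7c and let-7d.

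Members that differ by 1 base could in principle gain reads from each other by sequencing error. At the median mismatch rate of these libraries such reads would make up at most 0.360% of a member, for let-7e from let-7a, and at the highest rate at most 4.77%.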
